A study of Mus musculus with 9 samples.

Results

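Bidirectional promoters are short stretches of DNA from which a pair of genes is transcribed in opposite directions, 1 on each strand. MyoD1 peaks at such promoters of protein-coding genes are described here. Peaks of 6 CUT and RUN libraries that overlapped or were adjacent were joined into regions, and the 18774 regions with a peak in at least 2 of 6 libraries were kept. A region was a bidirectional promoter when its centre lay within 1 kb of the transcript starts of 2 different protein-coding genes that lie on opposite strands, point away from each other and start at most 1 kb apart (mm10, GENCODE M21 basic). The rule used no signal value beyond the peak calls. It found 675 regions at 674 gene pairs, 3.60% of all kept regions. They were compared with 7126 regions within 1 kb of another protein-coding start, called single promoters here, and with the 10973 other kept regions.

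CUT and RUN cuts and sequences DNA around a tagged protein in permeabilised cells. All 6 libraries came from C2C12, a mouse skeletal muscle myoblast line, with the genotype "Endogenously 3xF-HaloTagged MyoD1" plus a further dox-inducible 3xF-Halo-MyoD1 transgene, so both groups carried the tag and the transgene. Per the study's methods, the cells were 1 clonal line in differentiation medium and the antibody recognised the Flag tag. The no dox group (labelled no treatment) held 3 biological replicates and the dox group (6 h dox treatment) held 3. Libraries of wild-type cells without the tag were not analysed here, so no level in untagged cells stands beside these values, and what part of a promoter's signal depends on MyoD1 was not tested.

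List lengths were 9389, 13877 and 13403 for no dox replicates 1, 2 and 3, and 12536, 13260 and 53661 for the corresponding dox replicates, at depths between 2868000 and 8030000 alignments. Dox replicate 3 stood apart by its list length and the libraries numbered 3 by their ranks, so results that rest on them are also given without them. Peaks were called in each library on its own and the signal has no spike-in scale. A region that is not called may therefore be bound below that library's threshold.

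MyoD1 is a basic helix-loop-helix factor that binds the E-box CANNTG as a dimer with an E protein, and its preferred form is CAGCTG. It is known for switching on muscle genes, many from distal enhancers. Bidirectional promoters are usually rich in CpG, lack a TATA box and serve housekeeping genes such as those of DNA repair, mitochondria and ribosomes. Matches to NRF1, ETS, YY1 and NF-Y motifs are known to be common in them.

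The sequences below come from the 5 highest of the bidirectional promoters called in all 6 libraries and are shown because each has CAGCTG within 150 bp of its summit (the middle of the stretch of maximum signal). Capitals mark CAGCTG, which reads the same on both strands. They are given 5′ to 3′ on the plus strand of GRCm38.p6, the assembly behind mm10. Where the E-box lies in an annotated untranslated or non-coding exon, only 30 bases around it are shown.
Pradc1/Cct7 (chr6:85451237-85451266, exon of Pradc1): actttagcctgaCAGCTGccacggcctccc
Rnf121/Xndc1 (chr7:102065159-102065266, intron of Rnf121): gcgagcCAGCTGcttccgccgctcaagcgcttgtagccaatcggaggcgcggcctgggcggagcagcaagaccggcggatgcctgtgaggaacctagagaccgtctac
Tpcn1/Iqcd (chr5:120588622-120588651, exon of Tpcn1): ctgccacagcggCAGCTGcgccagccttcg
Tpmt/Kdm1b (chr13:47043344-47043475, intron of Tpmt): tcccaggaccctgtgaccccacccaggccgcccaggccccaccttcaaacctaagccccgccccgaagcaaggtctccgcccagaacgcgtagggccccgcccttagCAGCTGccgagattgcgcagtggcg
Srsf2/Mfsd11 (chr11:116853775-116853804, exon of Mfsd11): ggcgggccccagCAGCTGctactgctcgtc

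The next 5 sequences come from 5 of the 6 highest promoters with a peak in every dox library (3) and in 0 of the no dox libraries. They are shown as the contrast to those above because they hold no CAGCTG. Each is the longest stretch outside annotated exons among the bases between both starts, which left 60 bases at St13/Xpnpep3. Capitals mark CCGGAAG or its reverse complement CTTCCGG (ETS), CCAAT (NF-Y) and CCGCCC, the reverse complement of GGGCGG (SP). The bases shown for Miip/Fv1 hold none of them. These motifs were not marked in the first set, where Rnf121/Xndc1 also holds CCAAT and GGGCGG and Tpmt/Kdm1b also holds CCGCCC. A match is a description of letters, not a site that a factor was seen to bind.
Miip/Fv1 (chr4:147868817-147868978): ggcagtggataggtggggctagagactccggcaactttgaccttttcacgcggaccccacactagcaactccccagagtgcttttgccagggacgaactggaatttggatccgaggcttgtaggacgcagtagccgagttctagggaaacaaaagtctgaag
Psmb1/Tbp (chr17:15499752-15499887): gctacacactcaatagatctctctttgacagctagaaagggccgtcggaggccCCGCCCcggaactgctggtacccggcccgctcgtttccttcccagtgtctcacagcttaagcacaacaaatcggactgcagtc
St13/Xpnpep3 (chr15:81400078-81400137): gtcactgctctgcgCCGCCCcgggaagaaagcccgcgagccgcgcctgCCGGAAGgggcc
Vmp1/Ptrh2 (chr11:86683837-86683984): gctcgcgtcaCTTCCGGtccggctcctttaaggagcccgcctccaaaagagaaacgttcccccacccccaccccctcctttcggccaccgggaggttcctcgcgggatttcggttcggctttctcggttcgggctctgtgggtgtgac
Mrpl32/Psma2 (chr13:14613166-14613239): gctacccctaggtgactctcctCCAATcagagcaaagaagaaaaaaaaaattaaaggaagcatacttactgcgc

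The annotation holds 1000 divergent protein-coding gene pairs with starts at most 1 kb apart, and 67.4% of them were the pair of a kept region. Counted without the rule of 2 libraries, 43.4%, 57.4% and 35.6% of these pairs had a peak centred within 1 kb of both starts in no dox replicates 1, 2 and 3. The shares were 60.6%, 58.3% and 76.7% in dox replicates 1, 2 and 3. Each dox library covered more pairs than any no dox library. Of the 19896 protein-coding genes outside such pairs, 20.5%, 27.3% and 15.9% had a peak within 1 kb of a start in no dox replicates 1, 2 and 3, and 30.2%, 27.9% and 42.6% in dox replicates 1, 2 and 3. The groups were apart in the same way, and the share was below that of the pairs in each of the 6 libraries. The share of genes with a transcript in these cells was not measured here.

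The question of the comparison with dox was how MyoD1 occupancy at these promoters differed between endogenous and raised MyoD1 levels. Of the 675 bidirectional promoters, 408, 534 and 345 were called in no dox replicates 1, 2 and 3, and 562, 549 and 655 in dox replicates 1, 2 and 3. The groups did not overlap. As shares they were 63.6% ± 14.3 without dox and 87.2% ± 8.57 with dox (SD, n = 3), a difference of 23.7 percentage points (exact two-sided permutation p = 0.1, the smallest that 3 against 3 libraries can give, adjusted p = 0.2 over 6 tests). The difference thus did not pass the threshold of 0.05, which this design cannot reach. The promoters had been kept by these same calls, so the comparison is not independent of the rule. Of them, 64 had peaks in dox libraries only. These were 44 with peaks in 2 dox libraries (6.52%, against 9.83% of all kept regions) and 20 in 3 (2.96% against 3.38%). Another 1 had peaks in no dox libraries only, in 2 of them (0.148%, against 0.650% of all kept regions).

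The difference moved with list length. With each list limited to its strongest peaks, as many as the shortest list holds, 491 bidirectional promoters were kept and the difference was 3.67 points (exact permutation p = 0.8). The shares then were 78.0%, 79.4% and 53.6% without dox and 91.2%, 82.1% and 48.7% with dox, so the groups overlapped. Without both libraries numbered 3 the difference was 13.8 points. Single promoters moved in the same direction, from 57.4% ± 14.6 without dox to 83.5% ± 10.1 with dox (SD, n = 3), by 26.2 points. Their shares were 55.6%, 72.7% and 43.8% in no dox replicates 1, 2 and 3. With dox they were 80.1%, 75.6% and 94.8%, so the groups did not overlap there either. Bidirectional promoters made up 4.77%, 4.51% and 3.17% of called regions in no dox replicates 1, 2 and 3 and 5.06%, 4.57% and 3.61% in dox replicates 1, 2 and 3, and these groups overlapped (difference 0.26 points, exact permutation p = 0.6, adjusted p = 0.6). Between libraries of the same number the share was higher with dox in 3 of 3 pairs (exact sign-flip permutation p = 0.25, the smallest that 3 pairs allow).

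**Figure D1:**
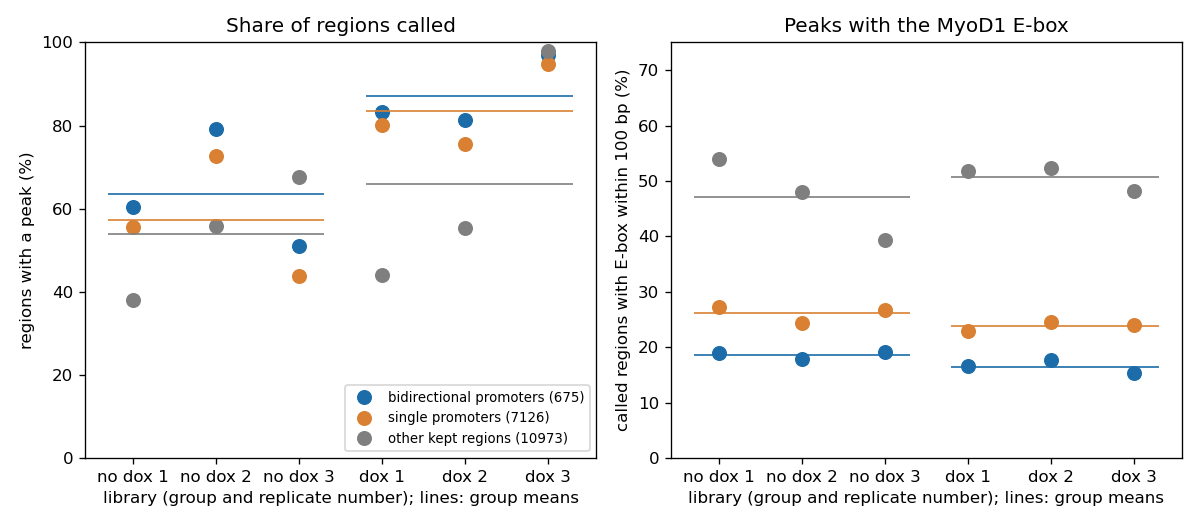
Left, the percentage of kept regions with a peak in each library, for bidirectional promoters (blue), single promoters (orange) and other regions (grey); right, the percentage of the called regions of each kind with CAGCTG within 100 bp of the peak's summit. Points are libraries and lines are means of 3 libraries; bidirectional promoters lie above single promoters on the left and below them on the right in all 6 libraries.

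Within a library, a bidirectional promoter was called more often than a single promoter. The gap was 4.83, 6.38 and 7.36 points in no dox replicates 1, 2 and 3 and 3.14, 5.72 and 2.20 points in dox replicates 1, 2 and 3. It was 4.94 ± 1.96 points on average (SD, n = 6) and positive in all 6 (two-sided sign-flip permutation test, exact over libraries, p = 0.03125, adjusted p = 0.0417 over 4 tests). The gap was 1.56 points with lists of equal length and 2.11 points without the libraries numbered 3. Both kinds of region had passed the same rule of 2 libraries. That rule used these same calls, so the test is not independent of it. With regions called in 3 or more libraries the gap was 2.46 points. The 6 libraries came from the same line and scored the same regions, so the 6 gaps are not independent of each other.

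A consensus peak was a region called in 2 or 3 of the 3 libraries of a group. Of the bidirectional promoters, 410 had a consensus peak in both groups, 203 with dox only (30.1%) and 11 without dox only (1.63%), and 51 in neither group. Over all 18774 kept regions 28.4% had a consensus peak with dox only and 5.11% without dox only. The share of bidirectional promoters with a dox-only consensus was thus close to that of all regions, and it was below the 34.5% of single promoters. Of the 203 promoters, 195 had a peak in dox replicate 3, 166 in dox replicate 1 and 154 in dox replicate 2, while 64 had no peak in any no dox library.

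These counts depended on single libraries. With 1 library of a group left out the consensus needs both remaining libraries. The 203 then became 315 without no dox replicate 1 (47.2%, against 39.2% of all kept regions) and 351 without no dox replicate 2 (54.3% against 46.6%). Without no dox replicate 3 the share was 39.0% against 41.6%, and without dox replicate 3 the count was 117 (19.7% against 15.5%). The share was thus further from that of all regions in some of these settings. The 11 promoters with a no-dox-only consensus became between 2 and 51 when 1 library was left out. The 2 were of 646, against 229 of 17476 kept regions, without no dox replicate 2. The 51 were of 595, against 2530 of 13451, without dox replicate 3. With lists of equal length 84 promoters had a dox-only consensus (17.1%, against 16.1% of all kept regions). A no-dox-only consensus was then found for 51 of 491, against 1367 of 11584 kept regions.

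**Figure D2:**
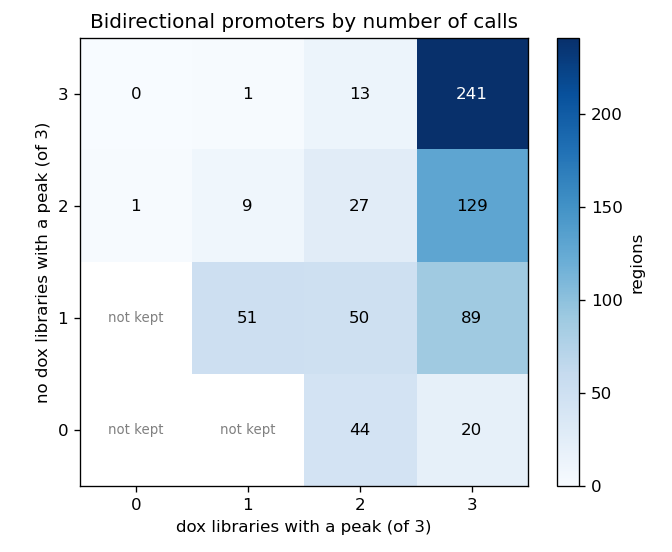
Number of bidirectional promoters by the number of no dox libraries (vertical axis, 0 to 3) and dox libraries (horizontal axis, 0 to 3) with a peak; fields marked not kept hold under 2 libraries and are outside the rule. Most regions lie to the right: 241 were called in all 6 libraries and 20 in all 3 dox libraries with 0 without dox.

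At the edge of the rule, 96 bidirectional promoters were called in exactly 2 of 6 libraries, 81 of them in dox replicate 3. Of the 96, 51 had 1 call in each group (7.56% of bidirectional promoters, against 21.4% of all kept regions). A further 44 had both calls with dox (6.52% against 9.83%) and 1 had both without dox (0.148% against 0.650%). The share with a peak in dox replicate 3 was not counted over all kept regions with 2 calls. A further 131 regions met the start-site rule but were called in 1 library, which was dox replicate 3 for 94 of them. In dox replicate 3 the median percentile of maximum signal was 54.0 for those with 2 calls and 44.8 for those with 1 call.

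Of the 675 bidirectional promoters, 20 (2.96%) had a peak in all 3 dox libraries and in 0 of the 3 without dox, against 3.38% of all kept regions. The reverse pattern was found for 0 of 675, against 0.0266% of all kept regions (5 regions). With libraries left out, the pattern needs a peak in all remaining dox libraries and in 0 of the remaining no dox libraries. This looser count ranged from 25 (of 595, without dox replicate 3) to 79 (of 646, without no dox replicate 2). It was 39 of 589 without both libraries numbered 3. With lists of equal length, where all libraries stayed in, it was 1 of 491. The share of all kept regions was not counted in these settings. Heights of the following 8, the highest of the 20 by mean percentile, are percentiles of maximum signal within the library's whole list, where 100 is the highest peak.

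At Miip/Fv1 (chr4:147868251-147869100), where Fv1 is known for restricting murine retroviruses, the percentiles were 73.4, 71.1 and 79.9 in dox replicates 1, 2 and 3. Psmb1/Tbp (chr17:15499501-15500400), shared by a proteasome core subunit and the TATA-binding protein, stood at 68.9, 60.5 and 73.2. St13/Xpnpep3 (chr15:81399101-81400600), with a chaperone cofactor and a mitochondrial aminopeptidase, stood at 63.1, 42.4 and 77.0. All 3 were thus mid-ranked or higher peaks in most dox lists, with no called counterpart without dox.

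Cage1/Riok1 (chr13:38036801-38037650) stood at 52.8, 69.4 and 60.2, where Riok1 is a kinase of ribosome maturation. Vmp1/Ptrh2 (chr11:86683201-86684450), with a membrane protein of autophagy and a mitochondrial peptidyl-tRNA hydrolase, stood at 55.8, 54.4 and 68.0. Mrpl32/Psma2 (chr13:14612801-14613850), with a mitochondrial ribosomal protein and a proteasome core subunit, stood at 52.8, 54.4 and 60.2. The remaining pair of promoters had their lowest percentile in different dox libraries. Mmp11/Chchd10 (chr10:75931951-75932800), with a matrix metalloproteinase and a mitochondrial intermembrane protein, stood at 40.6, 60.5 and 64.6, and Tmem209/Ssmem1 (chr6:30509201-30510150) at 55.8, 37.4 and 68.0. None of these 8 had CAGCTG within 150 bp of the summit, and of all 20 only Nt5c3/Vmn1r4, named after its values were seen, had it.

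The 8 bidirectional promoters with the highest mean percentile among those called in all 6 libraries were near the top of each list. Pradc1/Cct7 (chr6:85450601-85452650), where Cct7 is a subunit of the TRiC chaperonin, reached percentiles of 99.6, 99.5 and 99.1 in no dox replicates 1, 2 and 3 and 99.7, 99.8 and 99.7 in dox replicates 1, 2 and 3. Its maximum signals were 83.5, 92.6 and 34.7 CPM without dox and 247, 181 and 65.5 CPM with dox. The libraries numbered 3 were the lowest of their group on this scale. In rank the promoter did not move by more than 1 percentile between libraries.

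Rnf121/Xndc1 (chr7:102064551-102066100), where Rnf121 is a membrane ubiquitin ligase, stood between 98.9 and 99.96 in the 6 lists. Tpcn1/Iqcd (chr5:120587301-120589550), where Tpcn1 is an endolysosomal cation channel, stood between 97.1 and 99.6. Tpmt/Kdm1b (chr13:47042901-47044300), with thiopurine methyltransferase and a histone lysine demethylase, stood between 95.4 and 99.5. All 3 were near the top of every list, with and without dox. Srsf2/Mfsd11 (chr11:116852551-116854500), where Srsf2 is a splicing factor, stood between 97.3 and 99.4. Gm10644/Asf1b (chr8:83954451-83957450), where Asf1b is a histone chaperone, stood between 97.0 and 99.2. The last pair were lowest in no dox replicate 3. Dcaf6/Mpc2 (chr1:165459501-165462200), where Mpc2 is part of the mitochondrial pyruvate carrier, stood between 90.5 and 99.5, and Tada2b/Ccdc96 (chr5:36483651-36485200), where Tada2b is an adaptor of histone acetyltransferase complexes, between 90.5 and 98.9.

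The first 5 of these 8 had CAGCTG within 150 bp of the summit and the other 3 did not. Among the 241 bidirectional promoters called in all 6 libraries, ordered by mean percentile, CAGCTG was present in 13 of the first 20 (65%, 95% Wilson interval 43.3% to 81.9%), in 15 of ranks 21 to 60 (37.5%), in 16 of ranks 61 to 120 (26.7%), in 11 of ranks 121 to 180 (18.3%) and in 12 of ranks 181 to 241 (19.7%). The intervals cover counting error only, and the rank bands were chosen after the values were seen, so no test is given.

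Over all 675 bidirectional promoters, 132 (19.6%, Wilson interval 16.7% to 22.7%) had CAGCTG within 150 bp of the summit. The median percentile of those called was 59.6, 67.4 and 70.0 in no dox replicates 1, 2 and 3 and 68.9, 65.7 and 84.0 in dox replicates 1, 2 and 3. The 543 without it had medians of 45.8, 51.0 and 47.9 without dox and 55.8, 50.9 and 75.3 with dox. Promoters with the E-box were the higher in 6 of 6 libraries. Single promoters showed the same order in 6 of 6 libraries, with medians between 61.5 and 82.2 with the E-box and between 43.0 and 70.8 without it. Of the E-box promoters 50.8% were called in all 6 libraries, and of those without it 32.0%.

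The share called in a library was larger for promoters with the E-box by 13.4, 11.8 and 13.7 points in no dox replicates 1, 2 and 3 and by 6.68, 11.0 and 2.74 points in dox replicates 1, 2 and 3. The groups did not overlap, and the gap differed by -6.18 points between dox and no dox (exact permutation p = 0.1, adjusted p = 0.2 over 6 tests). With lists of equal length the gap differed by -1.002 points between groups, and without both libraries numbered 3 by -3.90 points. Single promoters had a gap that narrowed in the same direction: without dox 67.7% of those with the E-box and 53.1% of those without it were called on average, and with dox 87.0% and 82.1% (n = 3). With and without the E-box, the shares of bidirectional promoters called were 88.6% and 82.0% in dox replicate 1 and 90.2% and 79.2% in dox replicate 2. In dox replicate 3 they were 99.2% and 96.5%. A gap of shares has less room where nearly all promoters are called, and its part here was not tested.

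**Figure D3:**
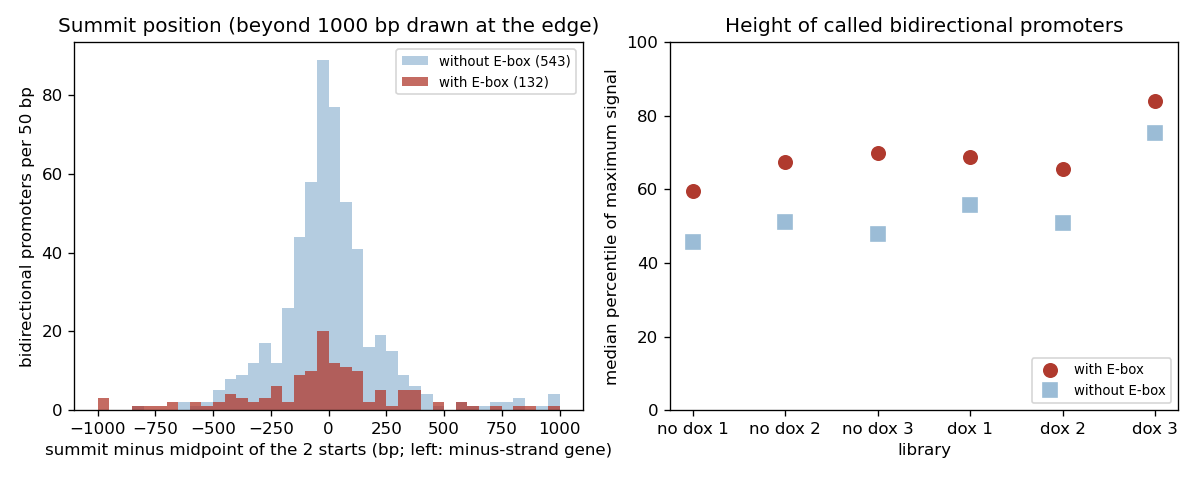
Left, distance from the midpoint of both starts to the summit in bp, in bins of 50 bp, for the 543 bidirectional promoters without and the 132 with CAGCTG within 150 bp of the summit; right, the median percentile of maximum signal of the called ones in each library. The E-box promoters have the higher median in 6 of 6 libraries, and both kinds have summits that centre near the midpoint.

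Fewer bidirectional than single promoter peaks held the E-box, as counted within 100 bp of the peak's own summit. In bidirectional promoters the share was 18.9%, 17.8% and 19.1% in no dox replicates 1, 2 and 3 and 16.5%, 17.7% and 15.3% in dox replicates 1, 2 and 3. In single promoters it was 27.3%, 24.4% and 26.7% without dox and 22.9%, 24.6% and 24.0% with dox. The difference between the kinds was -7.44 ± 0.964 points (SD, n = 6) and negative in 6 of 6 libraries (exact sign-flip permutation p = 0.03125, adjusted p = 0.0417 over 4 tests). The 6 libraries share regions and so sequence, and their differences are not independent of each other. In other kept regions the share lay between 39.4% and 53.9%.

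Between dox and no dox, the E-box share of bidirectional promoter peaks differed by -2.10 points, from 18.6% ± 0.711 without dox to 16.5% ± 1.20 with dox (SD, n = 3), and the groups did not overlap (exact permutation p = 0.1, adjusted p = 0.2 over 6 tests). With lists of equal length the difference was -0.20 points, and without both libraries numbered 3 it was -0.999 points.

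The base composition also differed between the kinds of promoter. The median GC content within 100 bp of the summit was 65.5%, 65% and 62% at bidirectional promoters in no dox replicates 1, 2 and 3 and 66.5%, 65.5% and 63.5% in dox replicates 1, 2 and 3. It differed from that of single promoters by -1.58 ± 0.204 points on average (SD, n = 6; lower in 6 of 6 libraries, exact sign-flip permutation p = 0.03125, adjusted p = 0.0417). The 6 differences are again not independent, since the libraries share regions. The ratio of observed to expected CpG in the 300 bp around the summit had a median of 0.841 at bidirectional promoters, 0.789 at single promoters and 0.241 at other regions. Both kinds of promoter were thus CpG-rich and the other regions were not.

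Other motifs were searched on both strands in the same 300 bp. Bidirectional promoters had more matches than single promoters to the motifs known from such promoters. ETS (CCGGAAG) was found in 27.4% of bidirectional promoters (Wilson interval 24.2% to 30.9%), 14.7% of single promoters and 2.82% of other regions. NRF1 (GCGC, any 2 bases, then GCGC) was found in 18.8% (16.0% to 21.9%), 13.3% and 1.15%. NF-Y (CCAAT) was found in 44.4% (40.7% to 48.2%), 36.2% and 27.0%.

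YY1 (AAGATGGCG) and CREB (TGACGTCA) were rarer, in 4.15% and 4.59% of bidirectional promoters against 2.47% and 2.65% of single promoters. SP (GGGCGG) was common in both kinds of promoter, 72.3% and 69.5%. AP-1 (TGANTCA) was rare in bidirectional promoters, at 2.81% against 6.17% of single promoters and 27.6% of other regions. The other E-box (CACCTG or its reverse complement CAGGTG) was found in 18.4% of bidirectional promoters, 22.9% of single promoters and 28.0% of other regions. These motifs can overlap one another, and no test was made of the shares.

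**Figure D4:**
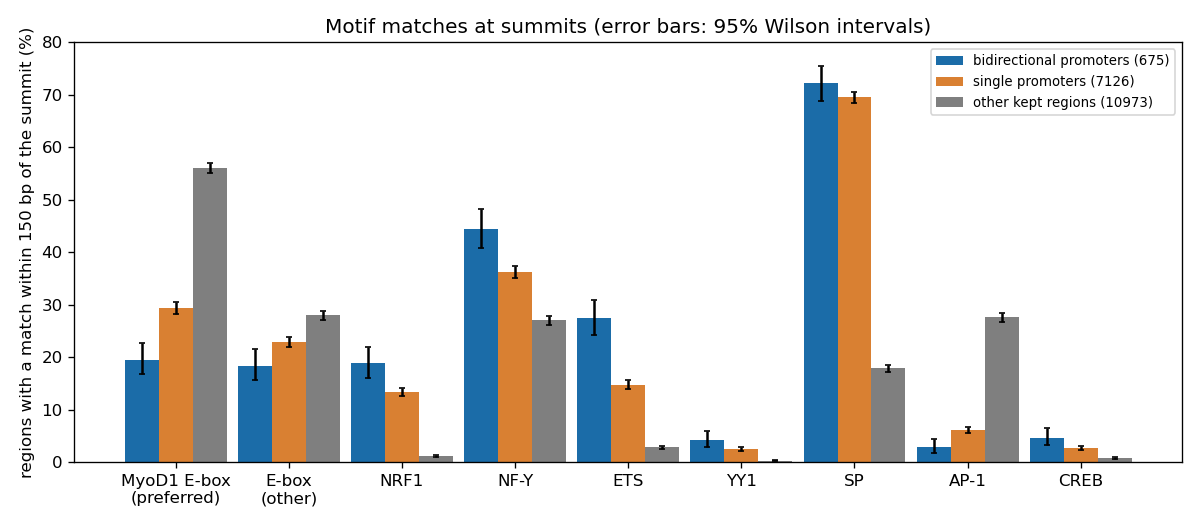
Percentage of regions with a motif match within 150 bp of the summit on either strand, for 675 bidirectional promoters (blue), 7126 single promoters (orange) and 10973 other regions (grey), with 95% Wilson intervals as error bars that cover counting error only. The preferred MyoD1 E-box is at 19.6% of bidirectional and 29.4% of single promoters, and ETS at 27.4% and 14.7%.

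The 203 bidirectional promoters with a dox-only consensus had fewer E-boxes and more ETS matches than the 410 with a consensus in both groups. CAGCTG was found in 13.8% of the former (Wilson interval 9.72% to 19.2%) and 23.7% of the latter (19.8% to 28.0%). ETS was found in 34.5% (28.3% to 41.3%) and 22.7% (18.9% to 27.0%). NRF1 was at 18.2% and 19.5%. These shares were not tested and hold for the lists as deposited, on which the set of 203 depends. In the same order, among single promoters CAGCTG was found in 21.1% of dox-only and 36.1% of shared consensus regions.

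The start sites of a bidirectional promoter lay a median of 134 bp apart (quartiles 71 and 251 bp), and 80.3% of pairs were at most 300 bp apart. The summit fell between both starts in 282 promoters (41.8%), on the side of the minus-strand gene in 202 and on the side of the plus-strand gene in 191, so neither side predominated. The summit lay a median of 105 bp from the midpoint of the starts, and within 150 bp of it in 64.3%. The distance to the nearest start had a median of 74 bp, against 117 bp at single promoters. A bidirectional promoter has 2 starts near which a summit can lie, so these distances are not on equal terms. E-box promoters had their summits a median of 130.5 bp from the midpoint and the others 96.5 bp.

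Height in rank was compared between bidirectional and single promoters within each library. The median percentile of bidirectional promoters was 48.5, 56.2 and 55.3 in no dox replicates 1, 2 and 3 and 58.4, 54.4 and 77.0 in dox replicates 1, 2 and 3. The groups overlapped, and the difference of 9.92 percentile points (53.4 ± 4.21 without dox, 63.3 ± 12.04 with dox, SD, n = 3) did not pass the test (exact permutation p = 0.3, adjusted p = 0.45 over 6 tests). Without dox replicate 3 it was 3.06 and with lists of equal length -0.72, the opposite direction.

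Against single promoters the median percentile was higher by 0, 5.20 and 0 points without dox and by 2.64, 3.56 and 3.77 points with dox, where 0 comes from tied signals. The mean was 2.53 ± 2.12 (SD, n = 6; higher in 4 of 6 libraries, exact sign-flip permutation p = 0.125, adjusted p = 0.125 over 4 tests). The direction depended on the ranking. Ranked only among the 4838 regions called in all 6 libraries, bidirectional promoters differed from single promoters by -6.66 points on average (exact sign-flip permutation p = 0.03125), and with lists of equal length by -4.30 points. The gap between the kinds differed by 1.59 points between dox and no dox (exact permutation p = 0.4, adjusted p = 0.48).

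The 241 bidirectional promoters called in all 6 libraries (35.7%, against 29.7% of single promoters and 25.8% of all kept regions) were tested one by one. Each region's percentile of maximum signal among the 4838 such regions was compared between groups with limma. Of all 4838 regions 0 were higher and 0 lower with dox at an adjusted p under 0.05 (0% and 0%), and so were 0 and 0 of the 241, with a smallest adjusted p of 0.998. At an unadjusted p under 0.05 there were 10 of 241 bidirectional promoters and 188 of 4838 regions. With the replicate number as a block these became 17 and 475, and the calls at an adjusted p under 0.05 stayed at 0. Percentiles leave out any change that all regions share. With limma on log2 of maximum signal in CPM, the median difference was 0.98 for bidirectional promoters and 0.91 for all 4838 regions. There, 63 of 241 and 1173 of 4838 had an unadjusted p under 0.05, and 0 passed after adjustment. CPM values have no spike-in scale here.

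The median difference between dox and no dox was 2.36 percentile points for bidirectional promoters (quartiles -4.19 and 8.87), 2.70 for single promoters and 0.19 for all 4838 regions, beside a median standard error of 10.2 for 1 bidirectional promoter. The median over bidirectional promoters was -0.26 without no dox replicate 3, -1.22 without dox replicate 1 and 6.57 without dox replicate 3, so its direction depended on single libraries. In 11 bidirectional promoters all 3 dox values lay above all 3 no dox values (4.56%, against 3.56% of all regions), and in 8 all lay below (3.32%, against 4.44% of all regions). These shares were near the background.

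The largest positive differences, which did not pass the test, were at Apaf1/Ikbip (chr10:91082251-91083500), where Apaf1 forms the apoptosome. Its percentiles among the shared regions were 15.3, 13.3 and 2.8 in no dox replicates 1, 2 and 3 and 55.5, 46.1 and 23.3 in dox replicates 1, 2 and 3, a difference of 31.2 ± 9.76 points (SE). Chtf18/Rpusd1 (chr17:25726701-25729650), where Chtf18 is part of a clamp loader in replication, was at 24.8, 41.8 and 24.3 without dox and 64.2, 53.3 and 49.5 with dox (25.4 ± 7.80, SE). The groups did not overlap in either.

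Shld2/Glud1 (chr14:34310151-34311550), with a shieldin subunit of DNA repair and glutamate dehydrogenase, was at 10.5, 17.3 and 6.9 without dox and 61.7, 35.1 and 20.4 with dox. Trappc13/Trim23 (chr13:104177801-104179200), where Trim23 is a ubiquitin ligase, was at 38.7, 45.1 and 6.9 and at 66.3, 65.9 and 34.1. BC005624/Usp20 (chr2:30981601-30983200), where Usp20 is a deubiquitinase, was at 42.5, 29.2 and 45.9 and at 78.9, 68.5 and 44.1. Trappc13/Trim23 had CAGCTG at its summit and the other 4 of the 5 did not. The groups overlapped in the last pair of promoters but not in Shld2/Glud1.

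The largest negative difference was at Phf7/Bap1 (chr14:31250201-31252050), where Bap1 is a histone deubiquitinase: 49.7, 35.4 and 45.9 without dox and 33.0, 10.8 and 9.5 with dox (-25.9 ± 8.73 points, SE). It was the only one of the 5 lowest with CAGCTG at its summit. Usp5/Cdca3 (chr6:124828151-124830650), with a deubiquitinase and a cell cycle protein, was at 29.4, 45.1 and 59.9 without dox and 23.1, 30.0 and 17.4 with dox. Abce1/Anapc10 (chr8:79711051-79712200), with a ribosome recycling factor and a subunit of the anaphase-promoting complex, was at 55.6, 38.5 and 36.1 and at 28.2, 22.3 and 18.9. The groups did not overlap at Phf7/Bap1 and Abce1/Anapc10, and did at Usp5/Cdca3.

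Fiz1/Zfp524 (chr7:5014251-5016100), a pair of zinc finger genes, was at 46.0, 50.6 and 36.1 without dox and at 35.4, 30.0 and 11.3 with dox. Its summit lay 1234 bp from the midpoint of the starts, on the side of Zfp524, and its groups did not overlap. Sept10/Sowahc (chr10:59220901-59223750), where Sept10 is a septin, was at 20.2, 21.4 and 57.1 and at 30.7, 5.8 and 9.5, so its groups overlapped.

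**Figure D5:**
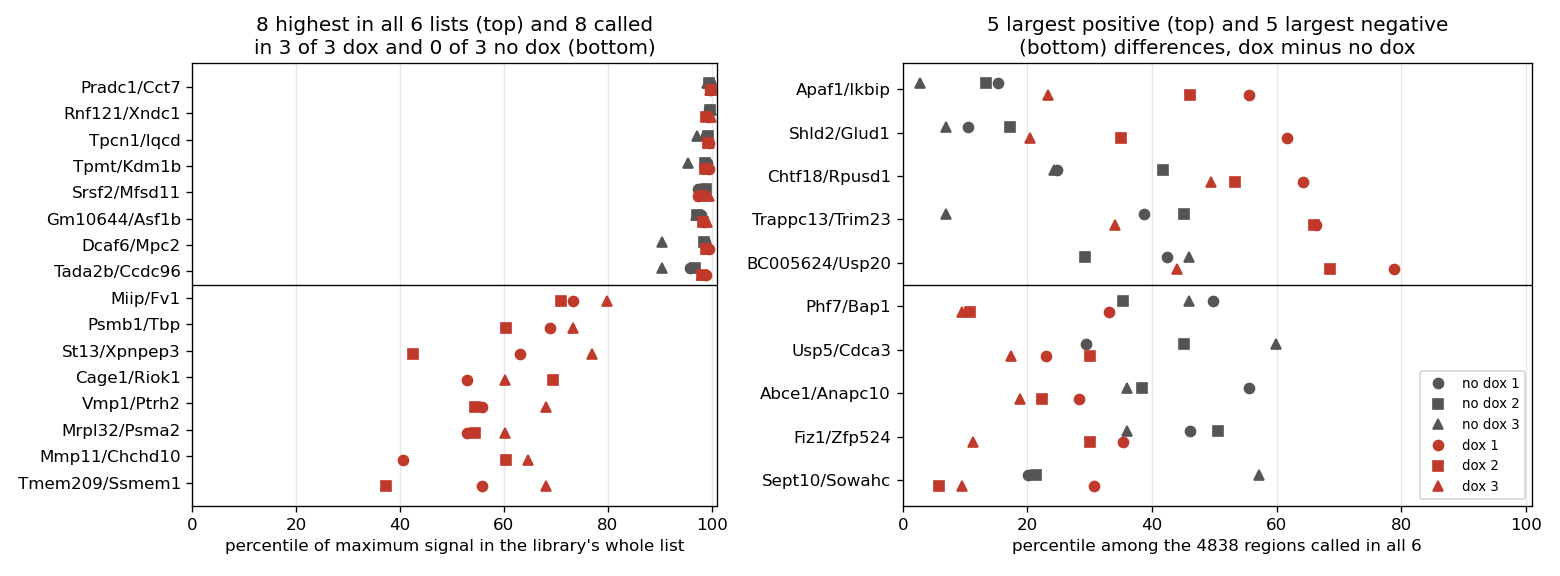
Left, percentile of maximum signal within each library's whole list for the 8 bidirectional promoters highest in all 6 lists (above the line) and the 8 highest of those with a peak in all 3 dox libraries and in 0 without dox (below it); right, percentile among the 4838 regions called in all 6 libraries for the 5 largest positive (above) and 5 largest negative (below) differences. Grey symbols are no dox and red symbols dox libraries, with shape for the replicate number; the upper 8 on the left stay above the 90th percentile in every library and the lower 8 have no grey symbols, while on the right none of the 10 passed the per-region test.

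Of the well-known gene pairs chosen by name, 8 were bidirectional promoters here. Col4a1/Col4a2, Surf1/Surf2 and Ppat/Paics were not, since they had no divergent starts within 1 kb in the annotation as defined here. Nudt21/Ogfod1 (chr8:94036501-94038050), where Nudt21 is a cleavage factor of polyadenylation, and Mcm4/Prkdc (chr16:15636951-15638350), with a helicase subunit of replication and the catalytic subunit of a DNA repair kinase, were called in all 6 libraries. Nudt21/Ogfod1 stood at list percentiles of 48.5, 56.2 and 61.2 without dox and 72.0, 67.7 and 84.8 with dox. Mcm4/Prkdc stood at 61.5, 74.2 and 61.2 and at 67.2, 57.6 and 81.1. By list percentile the groups did not overlap at the former and did at the latter, but among the shared regions both overlapped.

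Hspd1/Hspe1 (chr1:55087251-55088750), the mitochondrial chaperonin and its cofactor, was called in 2 of 3 no dox libraries at percentiles of 53.3 and 37.5 and in 3 of 3 dox libraries at 45.3, 54.4 and 73.2. Atm/Npat (chr9:53535901-53537500), with a DNA damage kinase and a histone gene activator, was called in the same 5 libraries at 67.5 and 44.9 and at 81.6, 71.1 and 82.2. Gart/Son (chr16:91646701-91648150), with a purine synthesis enzyme and a splicing protein, was again called in these 5, at 36.6 and 19.7 and at 45.3, 50.8 and 64.6. The library without a peak at all 3 was no dox replicate 3. Of these, Atm/Npat had CAGCTG at its summit.

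Mrps12/Sars2, with a mitochondrial ribosomal protein and a mitochondrial seryl-tRNA synthetase, was called in 2 libraries of each group. Psmb9/Tap1, with an immunoproteasome subunit and a peptide transporter of antigen presentation, was called in 3 no dox and 2 dox libraries. Fen1/Tmem258, where Fen1 is the flap endonuclease, was called in 1 library of each group at percentiles of 3.6 and 31.8. None of them showed a pattern that separated the groups.

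Of 92 genes of a myogenic list, 5 annotated divergent pairs held one and 3 of these were found here, beside 67.4% of all annotated pairs. Actn3/Zdhhc24 (chr19:4877351-4879550), where Actn3 is the alpha-actinin of fast fibres, was called in all 6 libraries at percentiles of 64.6, 74.2 and 73.4 without dox and 58.4, 65.7 and 92.0 with dox. Tbc1d10b/Mylpf (chr7:127207851-127209900), where Mylpf is the regulatory light chain of fast skeletal myosin, was called in no dox replicate 3 at 61.2 and in the dox libraries at 35.5, 6.5 and 91.4. Cdc27/Myl4 (chr11:104550001-104551000), where Myl4 is an atrial and embryonic myosin light chain, was called in 1 library of each group at 37.5 and 16.7. None of the 3 had CAGCTG at its summit. The adhesion list of 73 genes gave 1 bidirectional promoter, Tln1/Creb3, with a consensus peak in both groups.

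DNA repair was the largest of the housekeeping lists, with 30 bidirectional promoters of 35 annotated pairs (beside 67.4% of all annotated pairs, not tested). Of these, 17 had a consensus peak in both groups, 11 with dox only (36.7%, beside 30.1% of all bidirectional promoters) and 1 without dox only, and 7 had the E-box (23.3%, beside 19.6%). The one without dox only was Aimp2/Pms2 (Pms2 is a mismatch repair protein), at percentiles of 43.0, 44.9 and 47.9 without dox and with a peak in dox replicate 3 alone, at 78.5. Pinlyp/Xrcc1, where Xrcc1 is a scaffold of single-strand break repair, had the highest mean percentile of the list, between 81.6 and 97.6 in the 6 libraries. Brca1/Nbr1, with CAGCTG at its summit, was called in 2 no dox libraries at 44.9 and 38.6 and in 3 dox libraries at 29.7, 69.4 and 84.0. Pinlyp/Xrcc1, Aimp2/Pms2 and Brca1/Nbr1, and the examples of the lists below, were named after their values were seen.

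Genes of mitochondria followed. The mitochondrial ribosome list had 17 bidirectional promoters of 24 annotated pairs (beside 67.4% of all annotated pairs). Of these, 8 had a consensus peak in both groups, 6 with dox only (35.3%, beside 30.1% of all bidirectional promoters) and 1 without dox only. The oxidative phosphorylation list had 18 of 31, with 8 in both groups, 7 with dox only (38.9%) and 1 without dox only. Of the 18, 7 had the E-box (38.9%, beside 19.6% of all bidirectional promoters). These shares were not tested. Vmac/Ndufa11, where Ndufa11 is a subunit of respiratory complex I, had the E-box and stood between 83.7 and 98.3 in the 6 lists.

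Among genes of translation, the cytosolic ribosome list, chosen by symbol, had 8 bidirectional promoters of 14 pairs, 1 of which belongs to the kinase gene Rps6kb1 and 2 of which are separate regions at the pair Sphk2/Rpl18. Of the 8, 4 had a consensus with dox only (50%, beside 30.1% of all bidirectional promoters) and 2 in both groups, and 0 had the E-box. The tRNA synthetase list had 7 of 8 pairs, 5 with dox only (71.4%) and 2 in both groups, and 0 had the E-box. Over all bidirectional promoters 19.6% had the E-box, and of all annotated pairs 67.4% were found here. Both lists are short, and these shares were not tested. Rpl15/Nkiras1 and Lyrm4/Fars2 were those called in all 6 libraries.

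Among genes of protein folding and turnover, the chaperone list had 12 of 17 pairs (beside 67.4% of all annotated pairs). Of these, 7 were in both groups, 4 with dox only (33.3%, beside 30.1% of all bidirectional promoters) and 1 without dox only. The E-box was in 2 of the 12, 1 of them Pradc1/Cct7. Hsp90b1/Ttc41, with the chaperone of the endoplasmic reticulum, stood between 84.8 and 93.7 in the 6 lists. The proteasome list had 6 of 10 pairs, 2 in both groups, 3 with dox only (50%, not tested) and 1 without dox only. Psmb1/Tbp and Mrpl32/Psma2, shown by sequence above, were 2 of these 3.

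The splicing list had 17 of 23 pairs, 11 in both groups and 5 with dox only (29.4%, beside 30.1% of all bidirectional promoters). The cell cycle list had 10 of 13 pairs, 8 in both groups and 1 with dox only (10%). The zinc finger list had 13 of 21 pairs, 8 in both groups and 3 with dox only (23.1%). The histone list had 5 of 14 pairs (beside 67.4% of all annotated pairs, a difference that was not tested), 1 consensus peak in both groups, 0 with dox only and 1 without dox only. Many histone genes are similar to one another. How reads map at their promoters was not tested, so these calls are uncertain. Over all lists the per-region test called 0 promoters. With 1 to 11 promoters of a list called in all 6 libraries (0 for histones and adhesion), the median difference between dox and no dox ranged from -14.2 percentile points in the proteasome list (1 promoter) to 17.2 in the mitochondrial ribosome list (4 promoters), beside 2.36 over the 241.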

How the data were processed

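Per the labels and the study's methods, the authors processed reads with the nf-core/cutandrun pipeline on mm10, removed blacklisted regions, scaled coverage to CPM and called peaks per library with SEACR (relaxed). deepTools is also named in the submitters' processing notes. Versions of SEACR and deepTools are not given in the sources used here. Each deposited list gives an interval on a 50 bp grid with its total signal and maximum signal, in CPM without spike-in. Maximum signals were whole multiples of 1 step (within 0.05 steps, 100% of peaks), which gave the depth in alignments. No control libraries entered.

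Percentiles rank maximum signal within a list, ties averaged, with the highest peak of a region taken per library. Groups were tested by exact two-sided permutation of library labels over 20 assignments (smallest p 0.1, Benjamini-Hochberg over 6 tests), and kinds of promoter with sign-flip tests over 6 libraries (smallest p 0.03125, over 4 tests). The sign-flip tests treat the 6 libraries as independent, though they share regions and the cell line. Per-region values used limma 3.58.1 in R 4.3.3, adjusted over 4838 regions. The step was tested on simulated data. Same-numbered libraries deviated together from their group means (correlations over regions of 0.42, 0.27 and 0.61 for replicates 1, 2 and 3), though no dox replicate 1 with dox replicate 2 (0.29) and no dox replicate 2 with dox replicate 1 (0.17) did too, so a fit with the replicate number as a block was also made. The labels call the replicates biological.

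Named promoters are the 8 highest called in all 6 libraries, up to 8 called in 3 of 3 libraries of 1 group and 0 of the other, the 5 largest differences in each direction, known pairs chosen by name (1 is not reported here) and those beside a myogenic gene. The members, lists and tests were chosen with earlier results of these data known. Alternatives left out libraries and changed list length, region rule, start distance, annotation, ranking, motif and pairing. Scripts used Python 3.11.15, SciPy 1.17.1 and pandas 2.3.3.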

Additional observations from a re-analysis of the deposited data

How the results depend on the processing

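The per-region test called 0 bidirectional promoters under every alternative run. The replicate block changed no call and left the difference in called share at 23.7 points (exact sign-flip p = 0.25, the smallest that 3 pairs allow). Without both libraries numbered 3, the smallest sign-flip p of 4 libraries is 0.125, so the gaps to single promoters lost their call: 2.11 points in called share, -6.94 points in E-box share and -1.75 points in GC content. Counts then were 26 promoters with a no-dox-only consensus, 39 called in 3 dox and 0 no dox libraries under the same rule of all libraries in a group, and 4 the reverse. With lists of equal length, the median percentile differed by -0.72 points between groups, the gap in percentile to single promoters was -4.30 points and differed by -0.98 points between groups, and the counts were 84 dox-only, 51 no-dox-only, 1 and 1. With regions called in 3 or more libraries the gap in percentile and its difference were 0. With total signal the gap was 2.34 points, past the threshold (adjusted p = 0.03125; between 0.03125 and 1 over all alternatives), and differed by -0.40 points. Ranked among regions called in all 6, it was -6.66 points and differed by -2.45 points.

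With 1 library left out, 5 libraries allow no sign-flip p under 0.0625, so no call could hold. The ranges were 17.4 to 31.3 points for the difference in called share, 3.06 to 14.3 for the median percentile, -0.071 to 0.58 for the share of called regions (-0.071 without no dox replicate 3 and -0.058 without dox replicate 1), -2.65 to -1.65 for the E-box share and -9.30 to -4.29 for the gap in called share by E-box. The gap in percentile ranged from 0 to 2.62 and its difference from 0 to 2.64, both 0 without dox replicate 3. Against single promoters the ranges were 3.63 to 4.48 points in called share, -7.66 to -7.23 in E-box share and -1.70 to -1.50 in GC content. Counts ranged from 117 to 351 dox-only, 2 to 51 no-dox-only, 25 to 79 in all dox and no no dox libraries, and 0 to 1 the reverse. Dox replicate 1 had the fewest alignments (2868000) and 562 promoters called, more than any no dox library. Dox replicate 3 had the most alignments (8030000) and the most promoters called (655). The part of depth in the calls was not tested. Tied maximum signals make percentiles coarse.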
